A study of Drosophila melanogaster with 12 samples.

Results

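The shape and spacing of ChIP-seq peaks were compared between Phaser (CG7372) and Saft (CG11247), a pair of proteins that the labels call transcription factors, in Drosophila melanogaster S2 cells. The comparison used the 6 ChIP libraries of the 12 samples in the series, 2 for Phaser and 4 for Saft, each with a peak list of its own. The 6 other samples are inputs and have no list. Libraries were assigned by their labelled gene and clone, and peaks were kept if they lay on the main chromosome arms (2L, 2R, 3L, 3R, 4 and X). That left 14641 of 14668 peaks. The Phaser lists held 5295 and 3987 of them in replicates 1 and 2 of clone 8D. The Saft lists held 1383 and 1507 in clone 9C, which the labels number clone 1, and 1207 and 1262 in clone 4H, their clone 2.

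S2 is a cultured line derived from embryos. In every library the cells expressed OsTir1, the plant receptor that directs a degron-tagged protein to degradation when auxin is given, and the endogenous gene carried FLAG joined to the auxin-inducible degron on all copies. The cells were not depleted, so the tagged protein was present throughout, and anti-FLAG M2 antibody was used for the ChIP. Each clone has 2 libraries described as biological replicates. Phaser is thus known from 1 clone and Saft from 2, and what belongs to a clone or its tag cannot be told apart from what belongs to the factor in Phaser.

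In a ChIP-seq experiment, DNA fragments bound by the protein are sequenced and pile up around the place of contact. A peak caller marks the stretch where the pileup exceeds its background, and the summit is the base with the highest pileup. A short site bound alone gives a stretch not much longer than the fragments, with the summit near its middle. Several contacts next to each other, or a protein spread along the DNA, give a longer stretch, and a very high pileup also lengthens a peak because its flanks rise above the background. Width and summit position therefore describe a peak's form, while the distance between neighbouring summits describes how sites are arranged along the chromosome.

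The library was the unit of every comparison. With 2 libraries against 4, an exact permutation test has 15 possible assignments and cannot give a two-sided p below 0.0667. Benjamini-Hochberg adjustment cannot lower a p, and over the 15 planned results the lowest adjusted p obtained was 0.1. No difference here could pass 0.05, so each is given with its values in every library and with whether the factors overlap. Read depth is unknown. The highest pileup recovered from the authors' values was 283 to 290 reads in all 6 lists, and the lowest background was worth 11.5 to 14.6 ChIP reads, with overlap between the factors. Peaks were called for each library separately and their strength is given as the authors' −log10 q or as the recovered number of reads at the summit. A read added 0.289 and 0.325 to the caller's scaled pileup for Phaser, and between 0.402 and 0.435 for Saft, so the same −log10 q does not stand for the same number of reads.

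Wide peaks made up a larger share of the Saft lists than of the Phaser lists, while the median width of all peaks overlapped between the factors. The median width was 361 and 343 bp in the Phaser lists. In Saft it was 330 and 323 bp in clone 9C and 336 and 351.5 bp in clone 4H. The values overlapped between the factors, with means of 352 ± 12.7 bp for Phaser (SD, n = 2) and 335 ± 12.1 bp for Saft (SD, n = 4), which puts Phaser at 1.05 times Saft (two-sided exact permutation test, p = 0.267, adjusted p = 0.333). The comparison of medians depended on which peaks were kept. With −log10 q of 10 or more the medians were 591 and 532.5 bp in Phaser and 849 to 1104.5 bp in Saft, a ratio of 0.561 without overlap. With the 1000 highest −log10 q in each list they were 809 and 650 bp in Phaser and 404 to 499 bp in Saft, a ratio of 1.57 without overlap, and with the 1000 of highest fold enrichment the ratio was 1.53. These 1000 were most of each Saft list, of 1207 to 1507 peaks, but a smaller part of the Phaser lists, of 5295 and 3987. They therefore took in weak peaks in Saft.

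The upper end of the widths was apart. The 90th percentile of width was 868 and 772 bp in Phaser. It was 1466 and 1476 bp in Saft clone 9C and 1221 and 1567 bp in clone 4H. Every Saft list lay above both Phaser lists, at 1432 ± 148 bp (SD, n = 4) against 820.2 ± 67.6 bp (SD, n = 2), which is 1.74 times wider (two-sided exact permutation test, p = 0.0667, adjusted p = 0.1). Peaks of 1 kb or wider made up 6.38% and 4.44% of the Phaser lists, 22.7% and 21.1% of the clone 9C lists and 17.6% and 25.1% of the clone 4H lists. The difference, Phaser minus Saft, of −16.2 percentage points was larger than the spread within either factor (5.41% ± 1.37 for Phaser, n = 2, and 21.6% ± 3.17 for Saft, n = 4, two-sided exact permutation test, p = 0.0667, adjusted p = 0.1). When only the 1000 peaks of highest −log10 q were kept in each list, the shares were 22.55% and 29.0% on average and the lists overlapped, as they did in the 90th percentile of width (1245 and 1543 bp on average).

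Wide peaks also held a larger part of the called bases in every Saft list than in either Phaser list. Peaks of 1 kb or wider covered 18.6% and 13.6% of all bases called in the Phaser lists, but 56.1%, 54.7%, 43.6% and 60.2% in the Saft lists, with 43.6% in replicate 1 of clone 4H. The Phaser lists covered 2464 and 1703 kb in all, and the Saft lists 667 to 896 kb. The narrowest peak was 150 bp in every list, and 0.661% to 1.74% of peaks had that width. The widest single peaks reached 3406 and 2954 bp in Phaser and 3318 to 4904 bp in Saft, so the extremes overlapped.

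Widths also fell into a different pattern. On a log scale of width, the share of Phaser peaks fell with each wider class from 300 to 2000 bp. In Saft it dipped and rose again. The class that starts at 600 bp and ends at 713.5 bp held 7.61% and 6.87% of Phaser peaks and 2.31% to 3.07% of Saft peaks. Among classes of the same log width above it, the fullest held 7.30% and 5.31% in the lists of Saft clone 9C and 6.55% and 6.66% in those of clone 4H. Counted per 100 bp, the second rise was smaller and not of the same size in every Saft list. Clone 9C had 1.95% and 2.26% at 700 to 800 bp, 2.86% and 2.32% at 800 to 1000 bp, and 2.66% and 2.31% at 1000 to 1500 bp. Clone 4H had 2.82% and 2.61%, then 4.14% and 2.46%, then 2.67% and 2.65%. Replicate 1 of each clone thus rose at 800 to 1000 bp, while replicate 2 stayed nearly level. Phaser peaks fell on that scale from 4.66% and 4.11% to 3.14% and 2.23% and then to 0.997% and 0.707%.

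**Figure D1:**
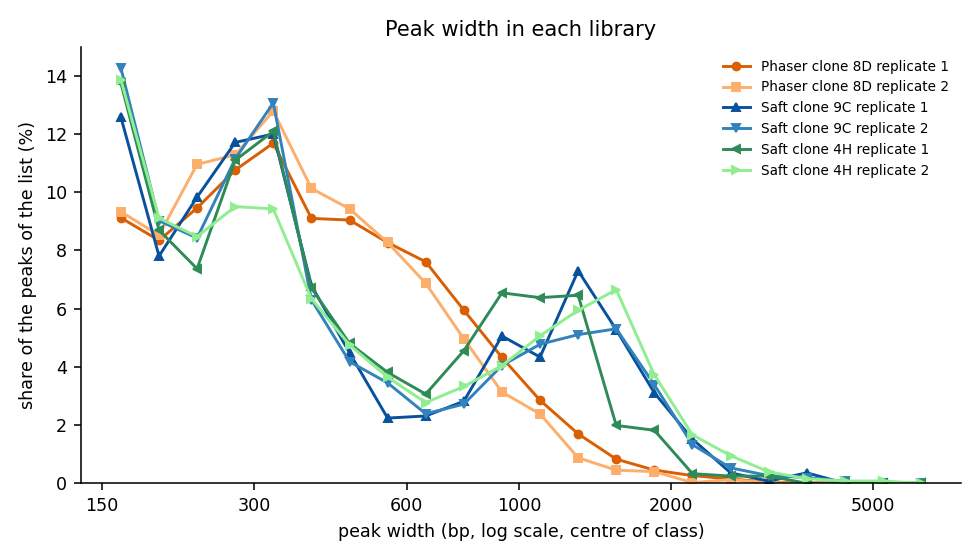
Share of each list's peaks (vertical axis, percent) by peak width in bp (horizontal axis, log scale, classes of equal log width), with a line for each of the 6 libraries. The 4 Saft lines are low in the class from 600 bp, at 2.31% to 3.07%, and rise again towards 1 kb and above, while the 2 Phaser lines decline without a second rise. In Saft clone 9C replicate 1 the dip is deepest in the class before it, at 2.24%.

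Strong peaks were wide in every list, so width was also compared among peaks of like strength. Spearman's correlation of width with −log10 q across the peaks of a list was 0.816 to 0.862 in the 6 lists, a description over peaks that are not independent replicates. Among peaks with −log10 q of 10 to 30, Phaser peaks were the wider ones. Their median was 512 and 480 bp against 389, 412, 372 and 393.5 bp in the Saft lists (496 ± 22.6 bp, n = 2, and 392 ± 16.4 bp, n = 4, Phaser being 1.27 times as wide, two-sided exact permutation test, p = 0.0667, adjusted p = 0.1). At −log10 q of 30 or more the order turned, with 914 and 841 bp in Phaser and 1237, 1246, 979 and 1266.5 bp in Saft. The means were 878 ± 51.6 bp (SD, n = 2) and 1182 ± 136 bp (SD, n = 4), and Phaser was 0.746 times as wide (two-sided exact permutation test, p = 0.0667, adjusted p = 0.1). Replicate 1 of clone 4H lay apart from the other 3 Saft lists here, and without it the ratio was 0.702. That class has no upper limit, and when it was divided at 60 the factors overlapped in both parts. At 30 to 60 the median width was 911 and 831 bp in Phaser and 898.5, 1060, 721 and 830.5 bp in Saft. At 60 or more it was 1067.5 and 1039 bp in Phaser and 1280, 1303.5, 1053 and 1353 bp in Saft.

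Peaks with −log10 q of 30 or more were a larger part of Saft lists. They numbered 637 and 401 in Phaser and 461, 457, 436 and 452 in Saft, so that the lists held like numbers of them despite their unequal length. Values of 60 or more were reached by 20 and 17 Phaser peaks and by 299 to 352 Saft peaks. Counted in reads, 2.78% and 1.98% of Phaser peaks had 250 or more at the summit, against 18.7% to 21.6% of Saft peaks. In the class of 100 to 150 reads, with the upper limit of every class not included, the order was the opposite, with 24.0% and 27.3% of Phaser peaks and 6.42% to 8.63% of Saft peaks. Between 49.7% and 58.3% of the peaks of all 6 lists had 50 to 100 reads.

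Below 200 reads, the widths of peaks with like numbers of reads overlapped between the factors. At 50 to 100 reads the median width was 264 and 253 bp in Phaser and 250 to 257 bp in Saft (ratio 1.02, two-sided exact permutation test, p = 0.333, adjusted p = 0.385). At 100 to 200 reads it was 516 and 486 bp in Phaser and 442, 431.5, 450 and 543.5 bp in Saft (ratio 1.08, two-sided exact permutation test, p = 0.4, adjusted p = 0.429). The highest of these belongs to replicate 2 of clone 4H. Without it the factors no longer overlapped in that class and the ratio was 1.14 (two-sided exact permutation test, p = 0.1, the smallest possible for 2 against 3).

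From 200 reads upward the Saft peaks were the wider ones. At 200 to 250 reads the median width was 869 and 818 bp in Phaser, 982 and 1010.5 bp in Saft clone 9C, and 890 and 1104 bp in clone 4H. At 250 or more it was 1149 and 1068 bp in Phaser and 1341, 1352, 1167.5 and 1485 bp in Saft. The lists did not overlap in either class, although replicate 1 of clone 4H exceeded the wider Phaser list by 21 and 18.5 bp. These classes were not tested, and the pileup came close to its highest value in the upper one.

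**Figure D2:**
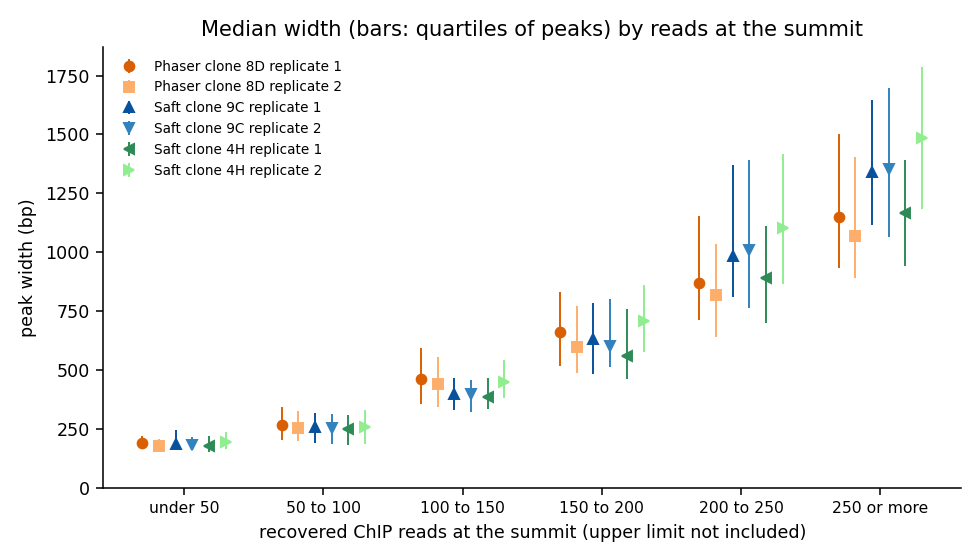
Median peak width in bp (vertical axis) by the number of recovered ChIP reads at the summit (horizontal axis, classes), with a symbol for each of the 6 libraries and bars from the lower to the upper quartile of its peaks. Phaser and Saft medians lie together at 50 to 100 reads, between 250 and 264 bp, and all 4 Saft medians lie above both Phaser medians at 250 reads or more.

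The position of the summit within the peak was symmetric about the centre in both factors. Between 48.7% and 52.0% of summits lay left of the centre, with overlap between the factors. Their distance from the centre differed a little. The median distance was 10.3% and 9.76% of the peak width in Phaser and 11.7%, 12.02%, 10.8% and 11.2% in Saft (10.0% ± 0.373, n = 2, and 11.4% ± 0.539, n = 4, two-sided exact permutation test, p = 0.0667, adjusted p = 0.1). The central stretch of the peak, from 33.3% to 66.7% of its width, held 72.6% and 75.2% of Phaser summits and 67.0%, 64.0%, 70.6% and 67.0% of Saft summits, a difference of 6.76 points (two-sided exact permutation test, p = 0.0667, adjusted p = 0.1). Phaser summits were the more central ones in both measures, with no overlap between the lists. Both orders turned among peaks with −log10 q of 10 or more, where the central stretch held 79.2% of Phaser and 83.4% of Saft summits on average.

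The order also turned with peak width, in a split made after these values were seen. Among peaks narrower than 500 bp, Saft summits lay farther from the centre. The median distance was 10.4% and 9.15% of the width in Phaser and 14.7%, 15.3%, 13.0% and 14.4% in Saft, a difference, Phaser minus Saft, of −4.60 points (two-sided exact permutation test, p = 0.0667). Among peaks of 1 kb or wider it was Phaser summits that lay farther out. Their median distance was 10.8% and 13.7% of the width, against 6.79%, 6.82%, 7.02% and 6.78% in Saft (12.3% ± 2.07, n = 2, and 6.85% ± 0.111, n = 4, two-sided exact permutation test, p = 0.0667).

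By this distance, wide Saft peaks were the most centred of all width classes in both factors. The central stretch held 90.4%, 85.8%, 84.9% and 86.4% of their summits, compared with 69.5% and 62.1% in wide Phaser peaks. In bp, the summits of wide peaks lay a median of 93.8 to 101.5 bp from the centre in Saft and 138 and 168 bp in Phaser. Narrow Saft peaks were less centred, with 54.6% to 62.2% of summits in the central stretch, against 72.7% and 76.9% for narrow Phaser peaks. Narrow peaks had fewer reads in Saft, with a median of 61 to 71 against 79 and 83 in Phaser. Wide ones had more, with 261 to 264 against 219.5 and 226. The part of read number in these differences was compared only by class. At 50 to 100 reads the median distance from the centre was 11.5% and 9.93% of the width in Phaser and 13.3% to 16.0% in Saft, and at 250 reads or more it was 10.3% in both Phaser lists and 6.83% to 7.08% in Saft.

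**Figure D3:**
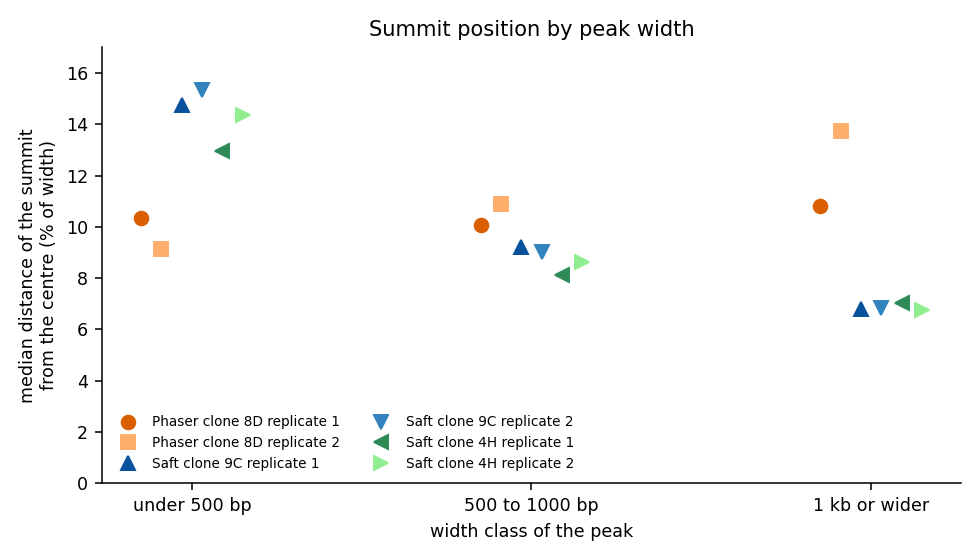
Median distance of the summit from the centre of the peak, as percent of the peak width (vertical axis), in 3 classes of width (horizontal axis), with a symbol for each of the 6 libraries. Saft symbols lie above the Phaser ones under 500 bp, at 13.0% to 15.3%, and below them at 1 kb or wider, at 6.78% to 7.02%.

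Summits of the same site were placed closely in different libraries. A total of 3475 Phaser sites had exactly 1 peak in each replicate, and their summits lay a median of 17 bp apart, with 86.2% within 50 bp. Pairs of Saft lists shared 823 to 976 such sites with medians of 14 to 17 bp, and 74.4% to 78.4% lay within 50 bp. Where the peak was 500 bp or wider in both lists, the median was 13 bp in 944 Phaser sites and 4 to 8 bp in the 352 to 376 sites of each pair of Saft lists. Width varied between libraries as well. At the Phaser sites it was 0.816 times as large in replicate 2 as in replicate 1. Between the replicates of clone 9C the ratio was 1.02, and in clone 4H replicate 2 was 1.16 times as wide as replicate 1. Across sites, Spearman's correlation between lists was 0.839 for width and 0.393 for summit position in Phaser, and 0.905 to 0.918 for width and 0.326 to 0.395 for position in the pairs of Saft lists, as a description over sites of the same libraries.

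Phaser summits lay closer together along the chromosomes when all peaks were counted. The median distance between neighbouring summits was 9010.5 and 11890.5 bp in Phaser, 29585.5 and 23739.5 bp in Saft clone 9C, and 35839 and 22794.5 bp in clone 4H. The factors did not overlap, and the Saft distance was 2.66 times the Phaser distance (two-sided exact permutation test, p = 0.0667, adjusted p = 0.1). Distances over 100 kb made up 3.52% and 6.08% of those in Phaser and 25.2% to 30.0% of those in Saft. The number of peaks sets the mean distance, which was 21575 and 28172 bp in Phaser and 75427 to 94004 bp in Saft.

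The median distance was also set against that mean. Points placed at random have a median distance of 0.693 of the mean, and a lower value marks many short distances beside a few long ones. The ratio was 0.418 and 0.422 in Phaser and 0.358, 0.315, 0.381 and 0.257 in Saft. Both factors thus lay below the value of random points in every list, and the Saft lists lay lower without overlap (0.420 ± 0.00314, n = 2, and 0.328 ± 0.0545, n = 4, two-sided exact permutation test, p = 0.133, adjusted p = 0.182). With peaks within 1 kb joined into 1, the ratio was 0.488 on average in both factors (two-sided exact permutation test, p = 1), and the lists overlapped. The coefficient of variation of the distances overlapped as well, at 1.75 and 1.61 in Phaser and 1.56, 1.53, 1.45 and 1.65 in Saft. The ratio was higher on the X than on any autosomal arm in each of the Saft lists, at 0.493 to 0.568 against 0.230 to 0.397.

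**Figure D4:**
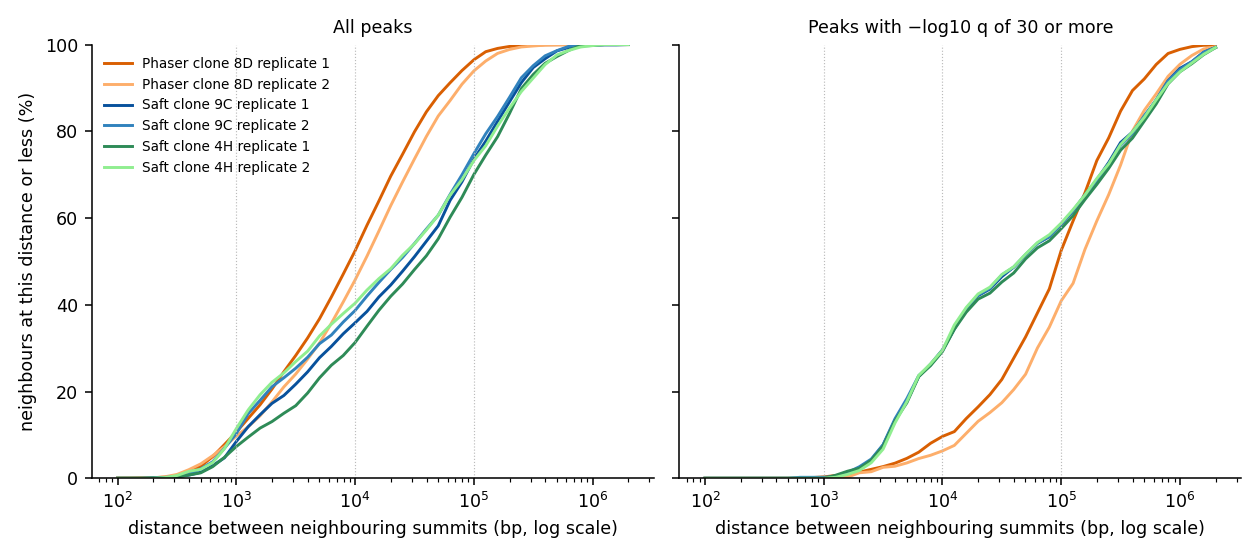
Share of neighbouring summits (vertical axis, percent) at or below a distance in bp (horizontal axis, log scale), for all peaks on the left and for peaks with −log10 q of 30 or more on the right, with a line for each of the 6 libraries. On the left the Phaser lines rise first, with medians of 9010.5 and 11890.5 bp. On the right the Saft lines lie above the Phaser lines from about 2 kb to beyond 100 kb and run almost on top of each other.

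Grouping was counted by joining summits into chains whose neighbours lay within a limit. At 1 kb the factors did not differ beyond the spread between libraries. Chains of 2 or more held 19.9% and 18.1% of Phaser summits and 15.7%, 18.6%, 13.8% and 20.8% of Saft summits (two-sided exact permutation test, p = 0.533, adjusted p = 0.533). At 10 kb they held 73.7% and 67.3% in Phaser and 52.1%, 55.7%, 48.6% and 57.4% in Saft, a difference of 17.03 points without overlap (70.5% ± 4.57, n = 2, and 53.5% ± 3.93, n = 4, two-sided exact permutation test, p = 0.0667, adjusted p = 0.1). At 100 kb nearly every Phaser summit was in a chain, with 99.6% and 99.1%, and 88.1% to 90.4% of Saft summits were (two-sided exact permutation test, p = 0.0667, adjusted p = 0.1).

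The lists are of unlike length, so the limit was also scaled. With the limit set to 0.1 of each list's own mean distance, which came to 2158 and 2817 bp in Phaser and 7543 to 9400.4 bp in Saft, the order was the opposite. Chains then held 36.6% and 38.5% of Phaser summits and 49.5%, 51.6%, 47.1% and 55.8% of Saft summits, a difference, Phaser minus Saft, of −13.5 points without overlap (37.5% ± 1.31, n = 2, and 51.0% ± 3.66, n = 4, two-sided exact permutation test, p = 0.0667, adjusted p = 0.1). The direction of the difference in grouping therefore depends on whether the limit is a fixed length or scaled to the list.

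Among strong peaks, of which the lists held like numbers, Saft was the more grouped factor at a fixed length too. Among peaks with −log10 q of 30 or more, a limit chosen after the data were seen, chains at 10 kb held 18.7% and 12.2% of Phaser summits. They held 49.2%, 48.8%, 49.1% and 49.1% of Saft summits, a difference, Phaser minus Saft, of −33.6 points (two-sided exact permutation test, p = 0.0667). The 4 Saft lists lay within 0.444 points of each other. The median distance between strong summits was 94468 and 150300 bp in Phaser and 46654 to 49027 bp in Saft. Chains of 4 or more strong summits within 10 kb of the next did not occur in either Phaser list, whose longest held 3. Saft had 11, 10, 9 and 10 such chains, and its longest held 6 in each list.

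The same direction appeared with other measures of strength. Among the 400 peaks of highest −log10 q in each list, chains at 10 kb held 13.0% and 12.2% of Phaser summits and 45% to 47% of Saft summits. Among peaks with 200 or more recovered reads, which numbered 509 and 320 in Phaser and 358 to 423 in Saft, they held 19.8% and 13.1% in Phaser and 41.6% to 49.2% in Saft. With a limit of −log10 q of 10 the factors overlapped, at 47.6% for Phaser and 48.3% for Saft on average (two-sided exact permutation test, p = 0.667). Distances within the chains of strong peaks are at most 10 kb by the definition of a chain. Their medians were 5154 and 4670 bp in Phaser and 4025 to 4154 bp in Saft.

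**Figure D5:**
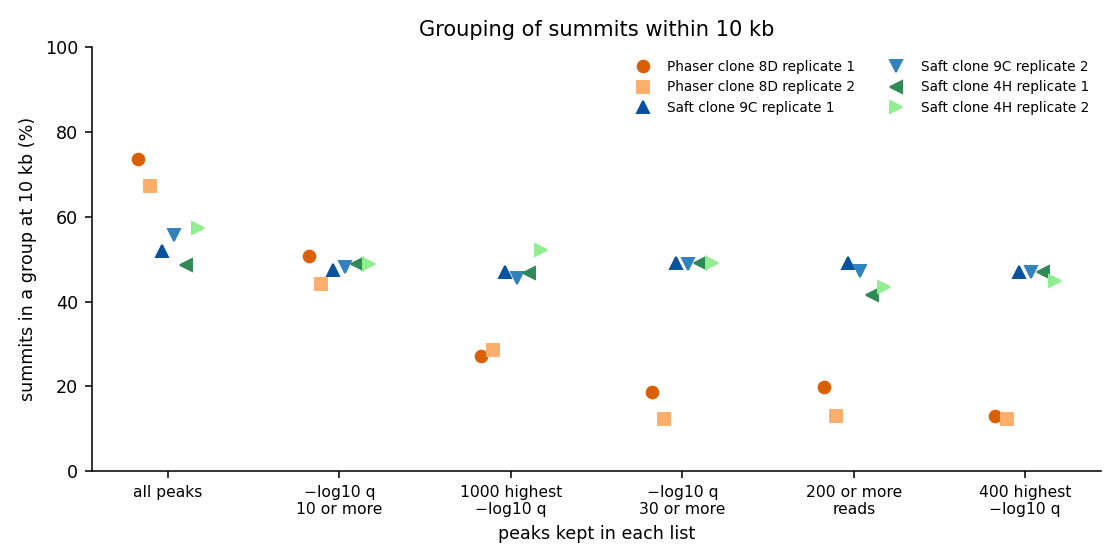
Share of summits in chains of 2 or more at 10 kb (vertical axis, percent) when all peaks or only the stronger ones of each list are kept (horizontal axis), with a symbol for each of the 6 libraries. Phaser falls from 73.7% and 67.3% of all summits to 13.0% and 12.2% of the 400 with the highest −log10 q, while Saft stays between 41.6% and 57.4% throughout.

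Grouped and lone peaks differed in form in Saft more than in Phaser, a comparison added after the values were seen. The median width of peaks in 10 kb chains was 368.5 and 346 bp in Phaser, close to the 343 and 334 bp of lone peaks. In Saft it was 477, 421.5, 488 and 475 bp in chains and 296, 298, 299 and 304 bp outside them. The ratio of grouped to lone width was 1.06 ± 0.0272 in Phaser (SD, n = 2) and 1.56 ± 0.0982 in Saft (SD, n = 4), without overlap (two-sided exact permutation test, p = 0.0667). Peaks of 1 kb or wider made up 26.1% to 33.2% of grouped Saft peaks and 9.00% to 14.7% of lone ones, and 5.07% and 7.22% of grouped Phaser peaks against 3.14% and 4.03% of lone ones. Grouped Saft peaks also had more reads, with medians of 95 to 153 against 72 to 80, while the Phaser medians were 95 and 97 against 93 and 96, and the part of read number in the widths was not tested.

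The closest neighbours were of unlike strength more often in Saft than in Phaser, and so were more distant ones. Of neighbouring summits within 1 kb, 65.8%, 62.6%, 64.8% and 59.7% joined a peak with −log10 q of 30 or more to one under 10, against 22.5% and 19.1% in Phaser. The difference, Phaser minus Saft, of −42.4 points was added after the values were seen (two-sided exact permutation test, p = 0.0667). For neighbours at 10 to 100 kb the share was 27.8% to 28.5% in Saft and 11.6% and 8.91% in Phaser, lower than within 1 kb in every list. Over 100 kb it was 26.2% to 32.8% in Saft and 18.3% and 14.5% in Phaser, the latter nearer to the Phaser shares within 1 kb. Within 1 kb, the stronger of the pair was 878 to 989 bp wide in Saft and 537.5 and 480.5 bp in Phaser, and the weaker one 224.5 to 238 bp in Saft and 236 and 228.5 bp in Phaser. A median of 126.5 to 171 bp separated the edges of the pair in Saft and 179 and 184.5 bp in Phaser. Seen from the strong peaks, the factors overlapped, since 34.1% and 28.9% of strong Phaser peaks and 31.2%, 40.3%, 17.9% and 34.7% of strong Saft peaks had a weak one within 1 kb, edge to edge. Seen from the weak peaks, 9.16% and 6.13% in Phaser and 14.1% to 29.1% in Saft lay within 1 kb of a strong one. Strong peaks made up 12.03% and 10.1% of the Phaser lists and 30.3% to 36.1% of the Saft lists. Weak ones made up 54.2% and 54.1% of the Phaser lists and 52.2% to 59.5% of the Saft lists. The part of this makeup in the shares of neighbours was not tested.

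At the next scale both neighbours were often strong in Saft. Between 1 and 10 kb, both peaks had −log10 q of 30 or more in 23.3%, 16.9%, 33.3% and 19.8% of neighbouring Saft summits and in 0.995% and 0.698% of Phaser ones. Joining peaks within 1 kb into 1 left the difference at 10 kb in place, with 60.9% of Phaser and 37.1% of Saft summits in chains on average. The X differed from the other arms in the caller's background, whose lowest value lay beneath 59.1% to 68.1% of peaks on the X but beneath 0.573% to 2.09% of those on autosomes. Without the X the share of peaks of 1 kb or wider was 5.55% in Phaser and 22.4% in Saft on average, and the share in chains at 10 kb 72.2% and 55.1%.

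The widest sites with 1 peak in every list of their factor are given as examples. The rule asked for 1 peak in each of 2 lists for Phaser and of 4 for Saft, so the factors are not compared by them. Positions are in dm3 and carry no gene annotation here. The widest Phaser site lay on 2R at 20031812 to 20034632, with a width of 2768 ± 74.95 bp (SD, n = 2), an enrichment of 10.9-fold and its summits at 65.8% and 67.1% of the width from the start. The next lay on 2L at 5151252 to 5153815 (2549 ± 21.2 bp) and on 3L at 8574912 to 8577442 (2505 ± 25.5 bp). Their summits were near one edge, at 83.7% and 18.6% of the width on average, and moved by 22 and 1 bp between the replicates. The fourth, on X at 2106540 to 2108853 (2074.5 ± 339 bp), had its summits at 73.5% and 83.3%. The fifth, on 2L at 5022965 to 5025077 (2005.5 ± 152 bp), had them at 33.7% and 39.5%. None of the 5 had its mean summit position between 40% and 60% of the width. In the 5 widest Saft sites, from the widest down, the mean position was 68.9%, 53.7%, 37.9%, 48.8% and 42.5%.

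The widest Saft site lay on 3L at 4147137 to 4149948, with 2652, 2588, 2416 and 2812 bp in the 4 lists (2617 ± 164 bp, n = 4). Its summit moved by up to 1340 bp between lists, from 31.1% to 83.0% of the width. The 4 that followed kept their summits within 101 bp and nearer the centre. On 3L at 16813449 to 16815895 the width was 2249 ± 217 bp and the summit lay at 50.1% to 57.0% of it, the same base within 1 bp in all 4 lists. On 3R at 20786858 to 20789141 the width was 2113 ± 143 bp with the summit at 46.1% to 51.2%. The others lay on 3R at 4077212 to 4079518 (2199 ± 116 bp, summit at 36.3% to 40.4%) and on 2L at 16810122 to 16812205 (1939 ± 131 bp, summit at 39.5% to 47.3%).

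Summits that kept to one side of the centre in every list, at whatever distance from it, were found in both factors. Of 1234 Phaser sites with a mean width of 500 bp or more, 925 (74.96%) had the summit on the same side in both lists, and of 304 such Saft sites, 161 (53.0%) did in all 4. These shares rest on 2 and 4 lists and are not compared, since agreement by chance is more frequent in 2 lists than in 4. They do not count lopsided peaks, because summits close to the centre were included. The most off-centre Phaser site lay on 3L at 9325495 to 9326348, with summits at 82.9% and 87.8% of the width. The most off-centre Saft site lay on 2L at 4613908 to 4614857, with summits at 81.8%, 82.1%, 82.3% and 83.9%, a spread of 14 bp. The 5 most off-centre Phaser sites had mean distances of 33.4% to 35.4% of the width from the centre, and the 5 Saft sites 25.1% to 32.5%. They were picked from 925 and 161 sites over 2 and 4 lists, so these extremes are not compared either.

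The densest chains at 10 kb were of similar size in the factors, although Phaser lists were longer. On 2L at 13081951 to 13129094, Phaser had 19 and 12 summits within 47.1 kb. On 3L at 10714568 to 10753812 it had 15 and 12. The other 3 Phaser chains of the densest 5 held means of 12.5 to 13.5 summits over 50.1 to 66.3 kb, on 3L and 3R. The densest Saft chain, on 2R at 19657486 to 19692316, held 14, 14, 9 and 17 summits within 34.8 kb. It also contained the longest chain of strong Saft summits, 6 in each list. On 2L at 8882969 to 8931368 the Saft lists held 14, 15, 11 and 12 summits within 48.4 kb. The other 3 of the densest 5, on 2R and 3R, held means of 10.0 to 11.8 summits. In each of the 5 Saft chains replicate 1 of clone 4H, the shortest Saft list with 1207 peaks, had the fewest summits.

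In fixed windows of 100 kb the 5 densest held means of 16.5 to 18.0 summits in Phaser and 11.0 to 14.5 in Saft. Phaser had 18 summits in each list on 3L between 9500001 and 9600000. Its replicates were unlike on 3L between 17500001 and 17600000, with 24 and 10. The densest Saft window, on 3L between 20600001 and 20700000, held 16, 14, 12 and 16 summits.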

How the data were processed

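The deposited files were 6 narrowPeak lists, 1 for each ChIP library and not pooled. Chromatin was fixed with 1% formaldehyde for 10 min and sonicated to 200 to 1000 bp, per the labels' protocols. Tools and build, per the submitters' processing notes and without order or settings, were MACS2 2.1.2.1, Bowtie 1.2.2, Trim Galore 0.6.2, bedtools 2.27.1 and dm3. The width limit, merging distance and read extension of the peak caller, which set the narrowest width and join close peaks, are not given in the sources used here.

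In the deposited lists, fold enrichment is the ratio of pileup to background at the summit, and −log10 p and −log10 q are the values that the authors' caller gave it. The deposited score carries only −log10 q, multiplied by 10 and cut to a whole number, in 100% of peaks, and was left aside. Starts, ends and summit offsets are as the authors gave them, printed here counting from 1. Width is end minus start, and summit position is the deposited offset over width. Reads and background were recovered from the deposited fold and −log10 p, on the basis that MACS2 adds 1 to both and takes a Poisson tail. Within 0.03 reads, 100% of recovered values were whole numbers in every list, against 4.66% to 6.17% with a wrong factor. The count of reads describes summits, not library depth. The notes do not say whether the inputs were the controls.

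Each library gave 1 value for a result, and the factors were compared by an exact permutation test of the difference of means, two-sided, on log2 values for widths and distances. Ratios are of geometric means. Benjamini-Hochberg adjustment covered the 15 planned results and, separately, the 4 results added after the values were seen, where the adjusted p was 0.0667 for each. The members, limits and results were chosen with earlier results of these data known. Labels call the replicates biological, without saying what was separate, and p-values measure only the spread between these libraries.

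Named sites were, for each factor, the 5 widest and the 5 most off-centre of merged intervals with exactly 1 peak in each list, the 5 densest chains at 10 kb and the 5 densest windows of 100 kb. Off-centre sites had a mean width of 500 bp or more and the summit on the same side in every list. Scripts recovered planted values on simulated lists. Alternatives were stricter lists, lists of equal length, joined peaks, other sequences, reproducible peaks, midpoints, fixed windows, means, linear scale, clone means, a replicate block and each library left out in turn. Same-numbered libraries were checked for pairing, as given with the alternatives. Python 3.11.15, numpy 2.4.6, pandas 2.3.3, scipy 1.17.1 and matplotlib 3.10.9 were used.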

Additional observations from a re-analysis of the deposited data

Results flagged for a closer look

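Replicate 1 of Saft clone 4H stood apart from the 3 other Saft libraries in the width of strong peaks. Its median width at −log10 q of 30 or more was 979 bp, and the nearest of the others was 1237 bp, a gap of 0.897 of the whole range, above Dixon's critical value for 4 samples. Replicate 2 of the same clone stood apart at 100 to 200 recovered reads, where its median width was 543.5 bp and the nearest other was 450 bp, a gap of 0.835 of the range. Chance alone gives such a gap in about 1 in 20 groups, and every planned and added result was examined for it in the Saft libraries.

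Peaks outside the main arms entered the alternative that used all sequences and no other comparison. Phaser replicate 1 had 4 of them. Saft clone 9C had 6 (replicate 1) and 8 (replicate 2), and clone 4H had 5 in replicate 1, each above the 3 that a count of 0 allows. The remaining lists held 1 and 3. Their widths ran from 150 to 324 bp, and 0 of them reached 1 kb.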

How the results depend on the processing

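Of 315 alternative values for 19 results, 283 kept their direction and 32 turned it, all of the latter in 8 results. The exact tests could not pass 0.05 under any of them, so only direction and size can change. The turned values came mostly from keeping the stronger peaks. In what follows ratios are Phaser over Saft and differences Phaser minus Saft, in percentage points. With −log10 q of 10 or more, the ratio of median widths was 0.561, the difference in summit distance from the centre 1.10, in the central stretch of the peak −4.22 and in grouping at 10 kb −0.787. With −log10 q of 30 or more, the ratio of widths was 0.746 and that of neighbouring distances 2.52, and the differences were 2.20, −8.39, −33.6 and, at 100 kb, −7.57 in the same order. For the 400 highest −log10 q they were 0.744, 2.75, 2.51, −10.2, −33.9 and −12.6. For 200 or more recovered reads they were 0.736, 2.36, 2.89, −10.5, −28.9 and −12.3. The limits of 30, 400 and 200 were chosen after seeing the data. For the 1000 highest −log10 q the ratio of distances was 1.44 and the differences in grouping were −8.68 at 1 kb and −20.1 at 10 kb. For the 1000 of highest fold enrichment they were 1.44, −9.07 and −21.2. The lists of the 1000 and 400 highest peaks were of equal length, and the cause of the turns was not tested. They made up a larger part of each Saft list than of either Phaser list. The ratio of median widths kept its direction for the 1000 highest by −log10 q and by fold, at 1.57 and 1.53. Peaks found in both replicates gave a ratio of median widths of 0.899 and, at 50 to 100 reads, 0.991. Means in place of medians gave 0.739.

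Leaving out each library in turn moved the ratio of widths at 50 to 100 reads between 0.999 and 1.043, and turned its direction without Phaser replicate 1. No other direction turned. The ratio of 90th percentiles then ranged from 0.542 to 0.609, the share of wide peaks from −17.6 to −15.0, grouping at 10 kb from 13.8 to 20.3, and grouping at 1 kb from 0.657 to 2.99, smallest without replicate 1 of clone 4H. The mean of a named site cannot move by more than its SD when a library is left out, so the 160 values of named sites gave no test. Joining within 1 kb and the 400 highest peaks left no value for chains at 1 kb.

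Same-numbered libraries did not deviate together in their counts of summits over 1097 windows of 100 kb (r of 0.0424, 0.0202 and −0.0349 for the 3 pairs of clones). Such counts cannot show a pairing that acts on widths or background, so pairing by number is not settled. Under a replicate block, the 90th percentile ratio of 0.574 had an exact p of 0.111, the smallest possible, and no call changed. With clone means, 1 against 2, no exact p can fall below 0.333. Unknown depth limits every comparison of distances, and the highest pileup of 283 to 290 reads limits those of the strongest peaks.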
